A study of Sus scrofa with 24 samples.

Results

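Liver transcript levels of 7 genes, ESRP2, PPL, TMEM125, TSPAN6, RHBDF1, OCIAD2 and TPST1, were followed in 24 pigs. The genes were taken by symbol from a deposited table of 13463 genes. They were chosen by their counts, which were higher in pigs given Sustanon than in control pigs, and so the comparison of Sustanon with control is given for them as a description without a test. All 7 were among the 8279 genes with enough counts to be tested. Sustanon is a mixture of testosterone esters and was injected intramuscularly at 4 mg/kg. Myodin is a nandrolone ester preparation and was injected at 5 mg/kg. Control pigs were untreated. The pigs were hybrids of Large White, Landrace and Duroc, allotted to treatment at random within sex, and each gave 1 liver library.

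The 8 Sustanon pigs were 3 castrated boars, 3 sows and 2 uncastrated boars. The 8 Myodin pigs were 2 castrated boars, 3 sows and 3 uncastrated boars. The 8 control pigs were 3 castrated boars, 3 sows and 2 uncastrated boars. The 2 doses differ and so do the hormones, which limits a comparison of Sustanon with Myodin to these 2 regimes. Uncastrated boars keep testes that make androgens of their own, while castrated boars and sows lack testes. Ages are not given in the labels.

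Total counts ran from 9267780 to 14017276 per library. The hepatocyte markers albumin (ALB), APOA1 and TTR were abundant in every group, and the markers of gut, pancreas and mesothelium were absent from the table or, for CEL, reached at most 0.211 CPM (counts scaled to a common library size with TMM factors). EIF1AY, a gene of the Y chromosome, was counted 476 times in control sow 16, 434 times in control sow 18 and 1 time in control castrated boar 15, as these libraries are labelled. These 3 libraries stood against their labels on sex and were kept under them. They remained control libraries by treatment label, and by label all 3 fell in the class of castrated boars and sows. The values without them stand beside the treatment comparisons, the uncastrated boars against the others in Myodin and control pigs, and the interaction. The comparisons inside a castration class, and of uncastrated boars among Sustanon pigs, were not repeated without them.

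The 7 genes have distinct roles. ESRP2 is an RNA-binding protein of the nucleus that sets epithelial patterns of alternative splicing and is known in hepatocytes as part of the adult splicing program. PPL is periplakin, a cytoplasmic plakin that links keratin filaments to desmosomes and the cell cortex. TSPAN6 is a tetraspanin, a family of small proteins that cross the membrane repeatedly and gather partner proteins into domains. RHBDF1 is iRhom1, a rhomboid relative without protease activity that brings the sheddase ADAM17 through the secretory pathway. TPST1 is a Golgi enzyme that adds sulfate to tyrosines of secreted and membrane proteins. OCIAD2 is a membrane protein of endosomes and mitochondria. TMEM125 is predicted to cross the membrane and has no well established function. Androgens act in the liver through the androgen receptor, a transcription factor of the nuclear receptor family, and liver gene expression is known to differ between the sexes.

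In the Sscrofa11.1 assembly, as annotated by RefSeq, the genes lie on chromosomes 3, 6, 8 and X. ESRP2 spans chr6:28804425-28814478 and overlaps NFATC3. PPL spans chr3:37460487-37511879. TMEM125 spans chr6:167973088-167978331, TSPAN6 chrX:82323634-82328919, and RHBDF1 chr3:41548440-41567596. OCIAD2 spans chr8:38771281-38793511 and overlaps the uncharacterised LOC110262085, and TPST1 spans chr3:16407607-16525788. The kit kept strand, but whether the counting used it is not given in the sources used here, so reads of ESRP2 and NFATC3, or of OCIAD2 and its overlapping gene, may be shared. NFATC3 had a log2 fold change of 0.26 (SE 0.10) with Sustanon against control and was not called (adjusted p = 0.137 by edgeR).

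PPL was the only one of the 7 for which the study designed a Real-Time PCR assay. Its primers are shown because they mark the transcript that was also measured outside RNAseq, and the PCR values were not used here. The forward primer has 19 bases and the reverse primer 22, each written 5′ to 3′, and all letters are in lower case because no part is singled out.
PPL forward: ggccgcatgcagtatgact
PPL reverse: tccggttgatgaaattctcgta

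Per unit of transcript length, ESRP2 had the highest mean of the 7 in untreated liver. Control means of TPM, which is scaled for length, were 188 ± 34.4 for ESRP2, 144 ± 28.2 for TSPAN6, 126 ± 33.0 for OCIAD2, 27.4 ± 13.3 for PPL, 25.9 ± 4.84 for TPST1, 9.39 ± 2.03 for RHBDF1 and 1.45 ± 0.635 for TMEM125 (SD, n = 8). The ranges of ESRP2, TSPAN6 and OCIAD2 overlapped, as did those of PPL and TPST1, so their order within each set was not resolved. RHBDF1 lay below all of these and TMEM125 below RHBDF1, without overlap. TMEM125 rested on 4 to 21 counts in a control library and 30 to 105 in a Sustanon library, so counting error weighs most on it. The other 6 genes had at least 160 counts in every library.

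ESRP2 was measured in Sustanon livers at 383 to 763 CPM, with a median of 624, and in control livers at 251 to 406 CPM, with a median of 365. In Myodin livers it ran from 276 to 540 CPM, with a median of 393. Of the 8 Sustanon pigs, 7 lay above every control, and castrated boar 1, at 383 CPM, lay inside the control range. Means were 597 ± 141 CPM with Sustanon, 394 ± 74.9 with Myodin and 358 ± 47.0 in controls (SD, n = 8). The log2 fold change of Sustanon against control was 0.74 (SE 0.14). Among Sustanon pigs the sows averaged 676 ± 116 CPM (SD, n = 3) and the castrated boars 469 ± 126 (SD, n = 3), with the 2 uncastrated boars at 634 and 703.

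PPL, the keratin linker, had 121 to 282 CPM with Sustanon (median 239), 88.9 to 263 with Myodin (median 133) and 54.3 to 178 in controls (median 102). Here too 7 of 8 Sustanon pigs exceeded every control. Castrated boar 3, at 121 CPM, did not. The control uncastrated boars had 171 and 178 CPM, and the 6 other controls had 54.3 to 130. Means were 224 ± 55.4, 151 ± 59.1 and 109 ± 47.8 CPM (SD, n = 8) in the same order, and the log2 fold change of Sustanon against control was 1.04 (SE 0.25).

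TMEM125 had 3.22 to 9.18 CPM with Sustanon (median 3.49), 0.884 to 3.61 with Myodin (median 1.70) and 0.404 to 1.96 in controls (median 1.32). Sustanon and control pigs did not overlap. Sow 6, at 9.18 CPM, stood apart from the 7 other Sustanon pigs, which ended at 4.76. Its title calls it a sow, and its column header marks it female too but carries the covariate code of the castrated Sustanon boars. It was kept as a sow. The study's serum measurements put this sow highest in testosterone among the Sustanon pigs. The relation of serum testosterone to TMEM125 was not tested. The log2 fold change of Sustanon against control was 1.73 (SE 0.31), the largest of the 7, and it was between 1.47 and 1.84 when each pig was left out in turn.

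TSPAN6 ran from 166 to 323 CPM with Sustanon (median 203), from 122 to 212 with Myodin (median 155) and from 114 to 170 in controls (median 128). The overlap between Sustanon and control came from castrated boar 3, at 166 CPM, and control uncastrated boar 25, at 170 CPM. The highest levels were those of Sustanon uncastrated boar 19, at 323 CPM, and Sustanon castrated boar 2, at 272 CPM. The log2 fold change of Sustanon against control was 0.77 (SE 0.13).

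RHBDF1, the escort of ADAM17, had 30.4 to 65.4 CPM with Sustanon (median 48.1), 23.5 to 56.0 with Myodin (median 28.9) and 17.6 to 30.4 in controls (median 26.3). Sustanon sow 4 and control uncastrated boar 27 met at 30.4 CPM, and the 7 other Sustanon pigs lay above every control. The 2 Sustanon uncastrated boars had the highest levels of all 24 pigs, at 56.2 and 65.4 CPM, just above Myodin uncastrated boar 23 at 56.0. The log2 fold change of Sustanon against control was 0.92 (SE 0.18).

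OCIAD2 had 169 to 312 CPM with Sustanon (median 218), 127 to 276 with Myodin (median 172) and 84.5 to 157 in controls (median 122). Sustanon and control did not overlap, and Myodin pigs lay across the gap. Means were 233 ± 49.5, 186 ± 47.3 and 121 ± 27.1 CPM (SD, n = 8), and the log2 fold change of Sustanon against control was 0.94 (SE 0.16).

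TPST1, the tyrosine sulfating enzyme, had 107 to 176 CPM with Sustanon (median 136), 62.1 to 138 with Myodin (median 87.7) and 73.2 to 105 in controls (median 83.1). The lowest Sustanon pig, castrated boar 3 at 107 CPM, was just above the highest control, sow 16 at 105 CPM. Means were 142 ± 23.1, 95.2 ± 24.1 and 85.0 ± 12.2 CPM (SD, n = 8), and the log2 fold change of Sustanon against control was 0.74 (SE 0.13).

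**Figure D1:**
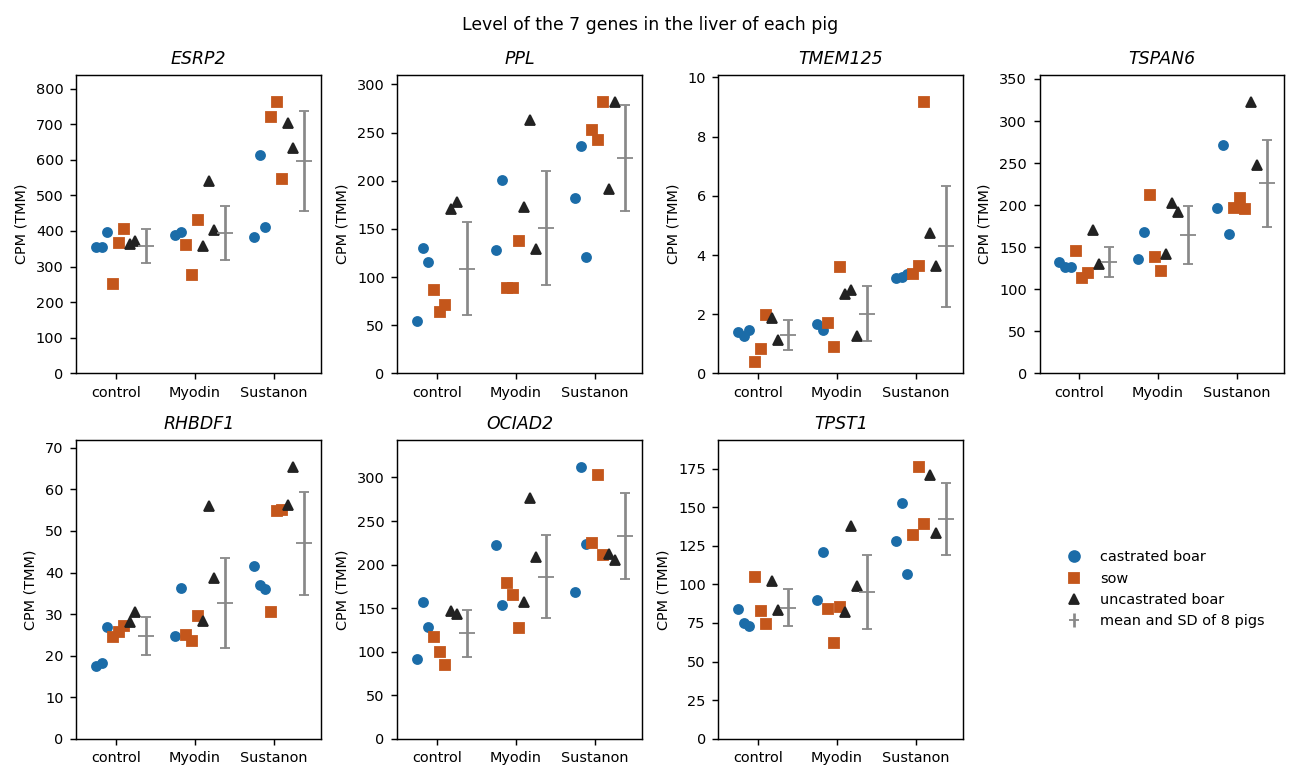
Each panel plots the CPM (TMM-scaled counts, linear axis from 0) of 1 gene in the 8 control, 8 Myodin and 8 Sustanon pigs, with symbols for castrated boars, sows and uncastrated boars and a grey bar for the mean and SD of 8 pigs. Sustanon pigs lie highest on average in every panel, and they clear every control in TMEM125, OCIAD2 and TPST1.

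Against the background of all genes, these values describe how the 7 were picked. Sustanon pigs did not overlap with control pigs in 3 of the 7 genes, while 0.362% of tested genes showed Sustanon above control without overlap. A gene was called when the quasi-likelihood test of edgeR gave it an adjusted p (Benjamini-Hochberg) under 0.05. By this rule 5.07% of tested genes were called between Sustanon and control and 3.39% were called higher, and all 7 were called higher, as the choice required. With the study's further threshold of 1 on the size of the log2 fold change, 1.56% of genes were called, and 2 of the 7, PPL and TMEM125. The median log2 fold change was 0.92 over the 7 and -0.01 over all tested genes. Without the 3 libraries that stood against their labels the log2 fold changes of the 7 were 0.71 to 1.73, but 0 genes were called in the whole table, with adjusted p between 0.102 and 0.166 for the 7 and 1199 genes at an unadjusted p under 0.05.

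The rises were not equally even. The SD of log2 CPM within groups was 0.27 for TSPAN6 and for TPST1, 0.29 for ESRP2, 0.33 for OCIAD2, 0.37 for RHBDF1, 0.54 for PPL and 0.57 for TMEM125, beside a median of 0.3 over all tested genes. TSPAN6, TPST1 and ESRP2 thus varied about as much as the median gene. A larger SD than that of PPL was found in 15.2% of tested genes, and a larger SD than that of TMEM125 in 13.3%.

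Myodin was compared with control to see whether nandrolone moved the same genes. The control values that chose the genes enter this comparison too, which tilts its differences upward, so its counts are given as a description. The log2 fold changes were 0.62 (SE 0.16) for OCIAD2, 0.65 (SE 0.31) for TMEM125, 0.47 (SE 0.25) for PPL, 0.40 (SE 0.18) for RHBDF1, 0.30 (SE 0.13) for TSPAN6, 0.16 (SE 0.13) for TPST1 and 0.14 (SE 0.14) for ESRP2. None of the 7 was called by edgeR, and the background was 0.0% of tested genes called, so no gene in the table passed. An unadjusted p under 0.05 was found for 597 genes, or 7.21%, and for 4 of the 7, and DESeq2 called 1 gene in the table and 0 of the 7. The 4 fell to 1 without the 3 libraries that stood against their labels (357 genes), without Myodin uncastrated boar 23 (555 genes), without control castrated boar 14 (528 genes) and by limma (512 genes). Without the 3 libraries the log2 fold changes of the 7 were 0.12 to 0.64, each with an adjusted p of 1.0. Among cell markers in this comparison, all 3 red blood cell markers tested lay below 0 (median -0.71, 1 at an unadjusted p under 0.05), as did 4 of 5 bile duct markers (median -0.35, 1 at an unadjusted p under 0.05) and all 4 stellate and stromal markers (median -0.30, 0 at an unadjusted p under 0.05). None was called, and their part in the values of the 7 genes was not tested. OCIAD2 came closest, with an unadjusted p of 0.000606 and an adjusted p of 0.346 by edgeR (0.0766 to 1.0 over other settings and 0.179 to 0.575 with each pig left out). Its 95% interval ran from 0.30 to 0.95, while that of ESRP2 ran from -0.15 to 0.43 and that of TPST1 from -0.11 to 0.44. Of the 8 Myodin pigs, 5 exceeded every control in OCIAD2, 3 in TMEM125, TSPAN6 and RHBDF1, and 2 in ESRP2, PPL and TPST1.

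Sustanon was then compared with Myodin directly. The Sustanon values that chose the genes enter this comparison, which tilts its differences upward, so its p-values are given as a description. ESRP2 and TPST1 passed the threshold, with log2 differences of 0.60 (SE 0.14, adjusted p = 0.0489 by edgeR) and 0.58 (SE 0.13, adjusted p = 0.0406). The other 5 did not pass, with log2 differences of 1.08 (adjusted p = 0.0688) for TMEM125, 0.56 (0.231) for PPL, 0.52 (0.132) for RHBDF1, 0.46 (0.0833) for TSPAN6 and 0.32 (0.281) for OCIAD2. The count of 2 of 7 stands beside 0.664% of tested genes called, and nothing is read from it. The 4 stellate and stromal markers tested also lay above 0 here (median 0.84, 3 at an unadjusted p under 0.05, 0 called), as did 4 of 5 bile duct markers (median 0.30, 3 at an unadjusted p under 0.05, 0 called), 6 of 7 hepatocyte markers (median 0.20, 2 at an unadjusted p under 0.05, 0 called) and all 3 red blood cell markers (median 0.31, 0 called). Below 0 lay 4 of 5 endothelial markers (median -0.21, 2 at an unadjusted p under 0.05, 0 called) and all 6 leukocyte markers (median -0.24, 0 called). Their part in these values was not tested. The interval for OCIAD2 was -0.003 to 0.65, so that a difference of up to that size between the 2 regimes remained possible for it. No gene of the 7 had every Sustanon pig above every Myodin pig, nor did any tested gene (0.0%). ESRP2 had 6 Sustanon pigs above every Myodin pig, TPST1 and TMEM125 had 4, TSPAN6 had 3, and PPL, RHBDF1 and OCIAD2 had 2.

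The groups differed in make-up, with 2 uncastrated boars among Sustanon pigs and 3 among Myodin pigs. With castration class as a covariate TMEM125 (adjusted p = 0.0317), TSPAN6 (0.0235) and RHBDF1 (0.0232) passed beside ESRP2 (0.0162) and TPST1 (0.012), while 390 genes of the table, or 4.71%, were called. The calls against Myodin depended on single pigs. With each pig left out in turn, TPST1 was called in 11 of 24 fits (adjusted p 0.00502 to 0.108) and ESRP2 in 4 of 24 (0.0071 to 0.113). Leaving out Myodin uncastrated boar 23 gave 5 called genes of the 7, namely TPST1 (adjusted p = 0.00502), ESRP2 (0.0071), RHBDF1 (0.0145), TMEM125 (0.025) and TSPAN6 (0.0275). The whole table moved with it, from 55 genes called to 541 (6.51%). Without the 3 control libraries that stood against their labels, ESRP2 and TPST1 kept log2 differences of 0.60 and 0.58 and both had an adjusted p of 0.0585.

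**Figure D2:**
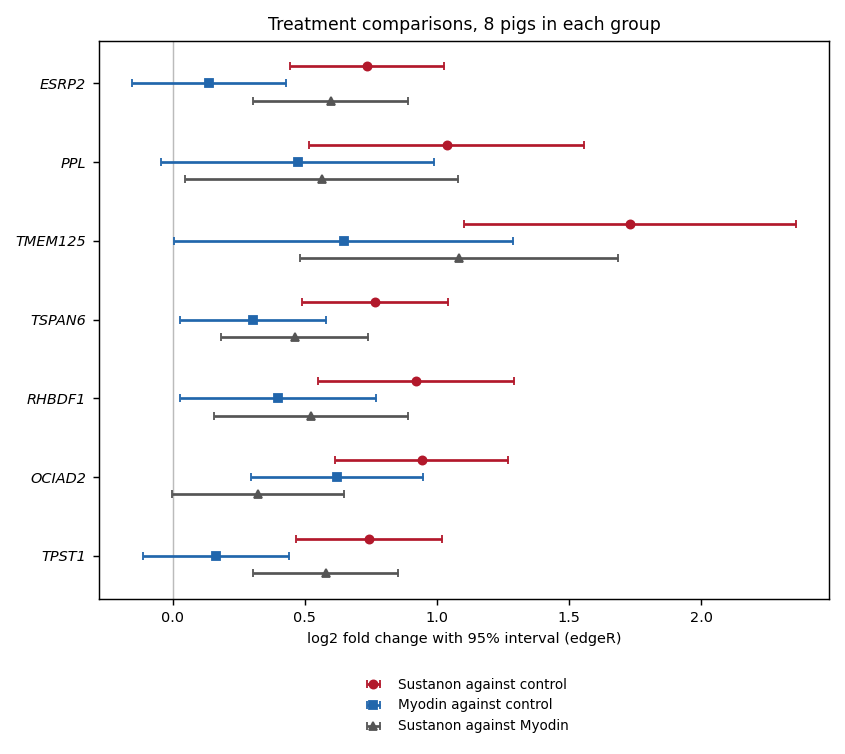
Points are log2 fold changes of the 7 genes in 3 treatment comparisons (8 pigs in each group) and bars are 95% intervals from edgeR's fit of the 3 groups. Sustanon against control lies highest for each gene, and for OCIAD2 the estimate for Myodin against control (0.62) lies above that for Sustanon against Myodin (0.32).

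The uncastrated boars allow a question that the choice of genes did not use, namely whether livers of pigs with testes carried more of these transcripts. Pigs were classed by castration alone, and serum hormone levels were not used. Within Myodin pigs, 3 uncastrated boars were compared with 2 castrated boars and 3 sows. The 7 log2 differences were 0.21 to 0.56, beside 50.3% of tested genes above 0, and 0 of 7 were called by edgeR, beside 2.54% of tested genes. Without uncastrated boar 23 the differences were 0.03 to 0.27, 0 of 7 had an unadjusted p under 0.05, and 1 gene in the table was called. Without the 3 control libraries that stood against their labels they were 0.21 to 0.56, with adjusted p of 0.176 to 0.774. DESeq2 and limma on the deposited log2 values also called 0 of the 7. RHBDF1 had the largest difference, 0.56 (SE 0.22), with an unadjusted p of 0.0164 and an adjusted p of 0.153, and was the only one of the 7 with an unadjusted p under 0.05, beside 19.6% of tested genes. Its 3 uncastrated boars had 28.3, 38.6 and 56.0 CPM, the 2 castrated boars 24.7 and 36.2 CPM, and the 3 sows 23.5, 24.9 and 29.5 CPM. RHBDF1 was called only when Myodin uncastrated boar 22 was left out (adjusted p = 0.0302, against 0.0302 to 0.622 over the 24 fits). In the study's serum measurements, that boar was the only Myodin uncastrated boar without testosterone. The relation of serum testosterone to the levels of the 7 genes was not tested. The 3 red blood cell markers tested were lower in the uncastrated Myodin boars (median -1.39, 3 at an unadjusted p under 0.05, 0 called), as were 4 of 5 endothelial markers (median -0.45, 2 at an unadjusted p under 0.05, 0 called). Leukocyte markers went the other way, with 5 of 6 tested above 0 (median 0.21, 1 at an unadjusted p under 0.05, 0 called). The part of these markers in the differences of the 7 genes was not tested.

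Within control pigs, whose libraries also entered the choice of the genes, 2 uncastrated boars were compared with 6 others. PPL differed most, by 1.0 (SE 0.33) on the log2 scale, with an unadjusted p of 0.00601 and an adjusted p of 0.137. Its uncastrated boars had 171 and 178 CPM, the castrated boars 54.3, 116 and 130 CPM, and the sows 64.0, 70.9 and 86.7 CPM. How many tested genes separated these pigs in the same way was not counted, so nothing is read from the order. The other 6 genes differed by 0.05 (ESRP2) to 0.36 (OCIAD2). By edgeR 0 of the 7 were called, beside 1.63% of tested genes, and PPL alone had an unadjusted p under 0.05, beside 14.7% of tested genes. Without the 3 libraries that stood against their labels, PPL was at 1.07 with an adjusted p of 0.247 and the 7 ran from 0.03 to 1.07. DESeq2 called 0 of the 7, and limma on the deposited log2 values called 1, PPL (adjusted p = 0.0451, against 0.0451 to 0.399 over the other settings), on a scale where the median difference of all tested genes was 0.152.

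Whether the response to Sustanon differed with castration was examined as an interaction. It rests on the Sustanon and control libraries that entered the choice of the genes, so its values are given as a description. The same 2 control uncastrated boars as in the comparison above enter it. The log2 fold change of PPL was 1.33 (SE 0.25) in castrated boars and sows and 0.44 (SE 0.42) in uncastrated boars, a difference of -0.89 (SE 0.49, unadjusted p = 0.0833, adjusted p = 0.768). For OCIAD2 the values were 1.09 (SE 0.17) and 0.52 (SE 0.30), a difference of -0.57 (SE 0.35, adjusted p = 0.795). The interactions of the remaining genes lay between -0.35 for TMEM125 and 0.24 for TSPAN6. None of the 7 was called by edgeR, beside 0.0362% of tested genes, and none had an unadjusted p under 0.05, beside 6.96%. DESeq2 and limma on the deposited log2 values called none. Limma gave 2 of the 7 an unadjusted p under 0.05 (503 genes). The fits without Sustanon castrated boar 3 (560 genes) and without control castrated boar 14 (550 genes) each gave 1. Intervals were wide, from -1.91 to 0.13 for PPL, with 2 uncastrated boars in each arm. Without the 3 libraries that stood against their labels the interactions were -0.96 to 0.20, with adjusted p of 0.814 to 0.997.

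In castrated boars and sows alone, where 5.54% of tested genes were called, all 7 were called, and in uncastrated boars alone 0 of 7 were called, beside 0.0% of tested genes and 5 of 7 at an unadjusted p under 0.05, where 10.7% of tested genes had one. Both counts restate the contrast that picked the genes, and nothing is read from them. Among Sustanon pigs, uncastrated boars exceeded the others by 0.52 (SE 0.24) in RHBDF1 and 0.47 (SE 0.19) in TSPAN6, with unadjusted p of 0.0381 and 0.0210 and adjusted p of 0.794 and 0.696. An unadjusted p under 0.05 was found in 5.79% of tested genes there and 0.0966% were called. These Sustanon libraries entered the choice of the genes. In OCIAD2 the difference was -0.21 (SE 0.25). In ESRP2, PPL, TMEM125 and TPST1 the difference lay between -0.05 and 0.22.

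**Figure D3:**
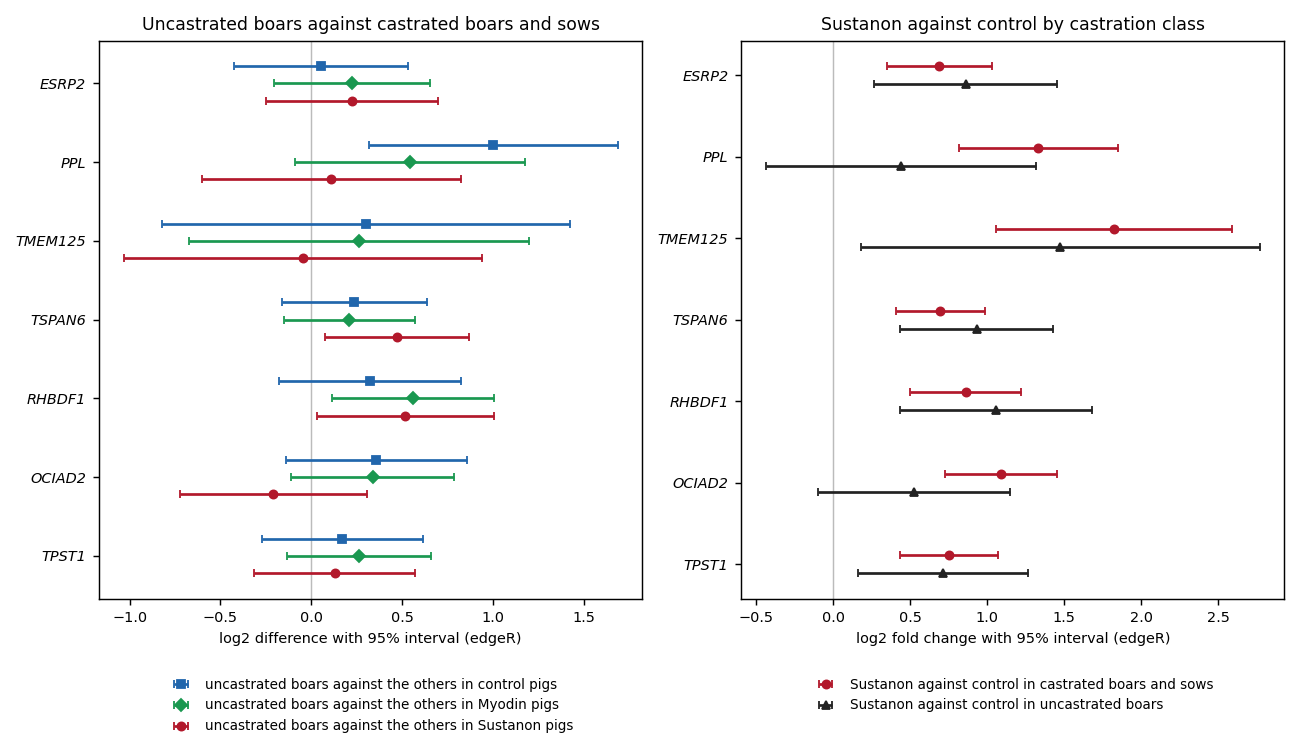
The left panel gives log2 differences between uncastrated boars and castrated boars with sows inside each treatment, and the right panel gives Sustanon against control inside each castration class, with 95% intervals from edgeR's fit of 6 groups. In PPL the control boars exceed the other controls by 1.0, and the Sustanon response is 1.33 in castrated boars and sows and 0.44 in uncastrated boars.

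Single pigs were then followed across all 7 genes. Sustanon pigs exceeded the highest control in 5 to 7 of the genes, with castrated boar 3 at 5, castrated boar 1 and sow 4 at 6, and the other 5 pigs at 7. These counts restate the values that chose the genes, and nothing is read from them. Over all 8279 tested genes the Sustanon pigs exceeded the highest control in 10.1% to 18.2%. Myodin pigs exceeded it in 1 to 3 genes, except uncastrated boar 23, which exceeded it in all 7 and was the highest Myodin pig in 5 of them. Over all tested genes boar 23 exceeded the highest control in 19.9%, uncastrated boar 24 in 20.3% and the other Myodin pigs in 10.8% to 14.2%. The chi-square per degree of freedom over genes between 2 Myodin libraries was 116 to 234 for pairs with boar 23 and 128 to 188 for pairs with boar 24. It was 42.0 to 124 for pairs with neither. Pairs with boar 23 or boar 24 were thus mostly higher, with some overlap for boar 23, and abundant transcripts weigh most in this measure. The mean z-score of boar 23 over the 7 genes, taken over the 24 pigs, was 1.0, inside the Sustanon range of 0.19 to 1.39, while the other Myodin pigs had -1.03 to 0.06. Control pigs ran from -1.18 to -0.18, and the 2 uncastrated boars, at -0.18 and -0.48, were the highest of them.

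**Figure D4:**
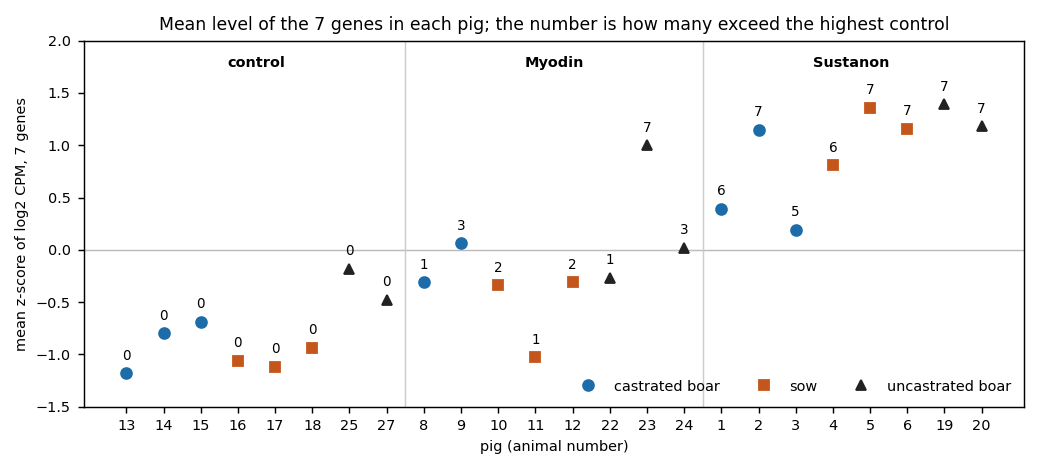
The vertical axis is the z-score of log2 CPM, averaged across the 7 genes, in each of 24 pigs, ordered by treatment and animal number, with symbols for castration class and, above each point, the number of genes in which the pig exceeded the highest control. Myodin uncastrated boar 23 lies at 1.0 with all 7 genes above the highest control, among values otherwise reached by Sustanon pigs.

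Most pairs of the genes also varied together inside treatment groups. After the mean of each treatment group was subtracted from log2 CPM, 19 of 21 pairs of the 7 genes had a Pearson correlation above 0 over 24 libraries, with a median of 0.41. The strongest pairs were TSPAN6 with TPST1 (0.62) and RHBDF1 with TPST1 (0.61). TMEM125 was loosest, at -0.10 with OCIAD2, -0.05 with TSPAN6 and 0.08 with TPST1, and it followed ESRP2 best (0.47). The points share their library and its TMM factor. Only treatment means were subtracted, so differences by castration class or of single pigs, such as Myodin boar 23, remain in the correlations. The median correlation of each gene with all tested genes was at most 0.01 in size.

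Over the same 24 libraries, the genes most like each member in this residual pattern were listed. ESRP2 was followed most closely by TRAF1 (r = 0.83), SLC17A4 (0.82) and PPP4R3A (0.81), and RHBDF1 by MIER2 (0.81), LAX1 (0.80) and FBRS (0.78). TSPAN6 was followed by the kinase gene PRKD1 (0.78), VWA3B (0.77) and CROT, a peroxisomal carnitine acyltransferase (0.76). TPST1 was followed by EHD4 (0.81), ANXA2, a membrane-binding annexin (0.81), and PRRG1 (0.80). PPL was followed by ZNF79 (0.78), PTCD1 (0.77) and the stress transcription factor ATF4 (0.77). OCIAD2 was followed by MTSS1 (0.71), ARHGEF28 (0.71) and the cholesterol exporter ABCA1 (0.69), and TMEM125 by ZNF672 (0.74), LGALS4 (0.71) and FUT1 (0.64). None of the 7 was among these nearest genes of another.

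Families and pathways around the 7 were examined to see whether the relatives moved with them. Around ESRP2, 9 other splicing regulators were tested and 0 were called between Sustanon and control, with a median log2 fold change of -0.03. PTBP1 and HNRNPM, the most abundant by TPM, were at -0.03 (SE 0.08) and -0.12 (SE 0.09). ESRP1, the paralog of ESRP2, was at -0.21 (SE 0.32). Of the genes whose transcripts ESRP proteins splice, 4 were tested and 0 called, with CTNND1, the most abundant by TPM, at 0.06. Gene counts do not show splice forms.

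Around PPL, 11 other plakin, desmosome and keratin genes were tested, of which 0 were called with Sustanon against control (median 0.10). The keratin genes KRT8 and KRT18, which encode the filament partners of plakins in hepatocytes, were at 0.37 (adjusted p = 0.432) and 0.60 (adjusted p = 0.233). The desmosomal cadherin DSG2 lay below 0, at -0.78 (SE 0.33, adjusted p = 0.182 by edgeR), and 7 of the 11 lay above 0 and 4 below. Among Myodin pigs, DSG2 had a log2 difference of -1.40 between uncastrated boars and the others (adjusted p = 0.0486 by edgeR). Of tested genes 2.54% were called there, and PPL had 0.54 and was not called. The call of DSG2 held in 7 of 24 fits with a pig left out (adjusted p 0.0216 to 0.186, with 0.136 without boar 23 and 0.186 without boar 24), and it was lost with only the groups compared (0.153), without sows (0.28), by limma (0.0577) and without a count filter (0.0557). Of 13 adherens and tight junction genes tested, 0 were called with Sustanon (median 0.03), with F11R, the most abundant by TPM, at 0.03 and E-cadherin (CDH1) at 0.10.

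Among 18 other tetraspanins, TSPAN4 rose with Sustanon against control, from 46.4 ± 7.73 to 65.1 ± 12.4 CPM (SD, n = 8), which is 0.49 on the log2 scale (SE 0.13, adjusted p = 0.0347 by edgeR). It was the only one of the 18 called there, and the list's median was 0.03. Abundant tetraspanins were not called, with CD81 at -0.25 (adjusted p = 0.203) and CD63 at 0.00 (adjusted p = 0.99). TSPAN17 had a log2 difference of -0.38 (SE 0.08, adjusted p = 0.0321 by edgeR) between Sustanon and Myodin, beside 0.664% of tested genes called, where TSPAN6 had a difference of 0.46 (adjusted p = 0.0833). The call of TSPAN17 held in 15 of 24 fits with a pig left out (adjusted p 0.00436 to 0.0951), was lost without Sustanon pigs 2, 4, 5, 6 or 20 or Myodin pigs 8, 10, 11 or 12, and was also lost by limma (0.0704) and with only the groups compared (0.0767).

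Around RHBDF1, 13 other genes of the rhomboid family and of EGF receptor ligand shedding were tested. RHBDL1, a rhomboid protease gene, rose with Sustanon from 8.51 ± 1.42 to 12.8 ± 3.09 CPM (SD, n = 8), which is 0.59 on the log2 scale (SE 0.17, adjusted p = 0.0391 by edgeR), and the other 12 were not called. EGFR itself was at 0.48 (adjusted p = 0.206), ERBB3 at -0.32 (adjusted p = 0.383), and ADAM10, a sheddase, at 0.02 (adjusted p = 0.925). The median of the 13 was 0.05.

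Around TPST1, 6 other genes of Golgi sulfation were tested and 0 were called, with a median of -0.07. The sulfate transporter SLC26A1 was at 0.41 (adjusted p = 0.152), and PAPSS1, which makes the sulfate donor, was at -0.07 (adjusted p = 0.805). Of secreted liver proteins with sulfated tyrosines, 5 were tested and 0 called, with fibrinogen gamma (FGG) at 0.40 (adjusted p = 0.338) and factor IX (F9) at 0.31 (adjusted p = 0.171). For OCIAD2 no relative was tested. Of the 5 genes numbered next to TMEM125, 0 were called, with TMEM126A at -0.15 (adjusted p = 0.482). Of 4 genes of epithelial or mesenchymal state, 0 were called, with CDH2 at 0.16 and SNAI2 at -0.26. TSPAN4 and RHBDL1 were thus the 2 called relatives in these lists, to be read beside 5.07% of tested genes called. Without the 3 control libraries that stood against their labels neither was called, as no gene was. With a pig left out TSPAN4 was called in 14 of 24 fits (adjusted p 0.0089 to 0.0852) and RHBDL1 in 15 (0.0261 to 0.101). TSPAN4 was also not called by limma (0.0949) or without uncastrated boars (0.0904), nor RHBDL1 without a count filter (0.0564) or without uncastrated boars (0.121).

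**Figure D5:**
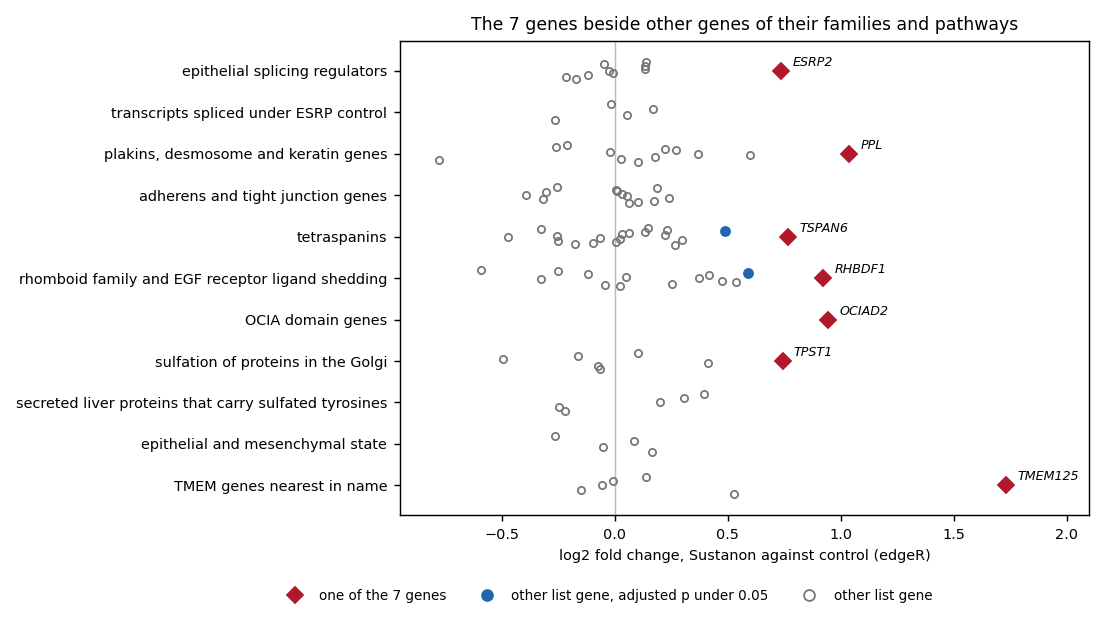
Each row is a family or pathway around the 7 genes, and each symbol is the log2 fold change of a tested gene between Sustanon and control, 8 pigs in each group. Red diamonds are the 7 genes, filled circles are the called relatives TSPAN4 (0.49) and RHBDL1 (0.59), and open circles are relatives that were not called, most of them near 0.

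Markers of liver cell types were set beside these levels, because in bulk liver a change in the number of cells of a type and a change in RNA per cell cannot be told apart. Of 7 hepatocyte markers tested, 0 were called with Sustanon, 6 of 7 lay above 0 (median log2 fold change 0.17, with ALB at 0.04), and their summed level was 153000 to 248000 CPM with Sustanon, 109000 to 197000 with Myodin and 125000 to 234000 in controls. Bile duct cells are epithelial too. Of 11 bile duct markers 6 were in the table, 5 were tested and 0 were called, with a median of -0.21 and CLDN4, the most abundant by TPM, at -0.29. Their sum was 143 to 229 CPM with Sustanon, 151 to 315 with Myodin and 202 to 297 in controls, with medians of 218, 255 and 237 CPM. Myodin uncastrated boar 23 had the lowest bile duct sum of its group, 151 CPM. The defining duct markers KRT19 and SOX9 were not in the table used.

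Stellate and stromal markers, like most hepatocyte markers, stood in the same direction as the 7 genes. All 4 tested had log2 fold changes above 0 with Sustanon against control (median 0.46, with COL1A2 at 0.52), 0 were called, and their sum was 132 to 381 CPM with Sustanon, 89.5 to 263 with Myodin and 92.0 to 299 in controls. Their part in the levels of the 7 genes was not tested. Leukocyte markers (6 tested, median -0.17, CD74 at -0.12), endothelial markers (5 tested, median -0.07, CLEC4G at -0.03) and red blood cell markers (3 tested, median -0.38, HBB at -0.29) had 0 calls. Their sums overlapped between Sustanon and control, at 699 to 964 against 735 to 1010 CPM for leukocytes, 308 to 540 against 372 to 513 CPM for endothelium and 464 to 2280 against 772 to 2420 CPM for red blood cells.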

How the data were processed

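Poly-A RNA of 24 pig livers was sequenced from stranded libraries. The authors trimmed the reads with Skewer and mapped them with STAR 2.5 to Sscrofa11.1, and the counting tool is not given in the sources used here. They deposited whole counts of reads per gene, not normalized, and the same libraries as log2(TPM + 1), a log2 scale with a pseudocount of 1. Of 13463 genes, 3779 have no symbol, and 9564 IDs matched the reference names. Groups and castration classes came from the sample titles, with 1 library per pig.

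Counts were filtered with filterByExpr, scaled by TMM and tested with the two-sided quasi-likelihood test of edgeR 4.0.16 in R 4.3.3, over 8279 genes with Benjamini-Hochberg adjustment and a threshold of 0.05. One fit had the 3 treatments. A second had 6 groups, each treatment split into uncastrated boars and the rest, and gave the castration contrasts. SEs came from the F statistics. CPM used TMM, and log2 CPM a prior count of 2. TPM were converted back from the deposited log2 values. The study named DESeq2, which was run as an alternative (1.42.0), as were RLE, no count filter, limma 3.58.1 on the deposited log2 values, the study's fold threshold, castration as a covariate, only the groups compared, no uncastrated boars, no sows, no libraries against their label on sex, and each pig left out. The edgeR script was tested on simulated data. No pair of libraries of a group agreed within sampling noise.

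The 7 genes, the gene lists and the marker lists were chosen with earlier results of these data known. Genes named beside the 7 are list members called with Sustanon or in Myodin uncastrated boars, the most abundant list members, and the 3 genes closest in residual correlation (mean log2 CPM of at least 1). ESRP1, KRT8, KRT18, CDH1, CD81, CD63, EGFR, ERBB3, ADAM10, PAPSS1, F9 and SNAI2 were named for their roles after their values were seen. Counting error adds to the spread between pigs, most for TMEM125.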

Additional observations from a re-analysis of the deposited data

Results flagged for a closer look

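Each of the 7 genes was checked in each treatment group for a pig set apart from the other 7, by the gap to the nearest pig divided by the range of log2 CPM. Of 21 such checks 2 found one, where chance gives about 1 in 20. ESRP2 was lowest in the library labelled control sow 16, at 251 CPM with the next control at 355 CPM (gap over range 0.724). This is 1 of the 3 libraries whose EIF1AY count stood against the label. TMEM125 was highest in Sustanon sow 6, at 9.18 CPM with the next at 4.76 CPM (gap over range 0.63), and without that pig its log2 fold change against control was 1.47, the lowest of the fits that left out a pig.

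For TPST1 the difference of Myodin from control had another sign in castrated boars than in sows. Both Myodin castrated boars, at 90.1 and 121 CPM, lay above the mean of the control castrated boars, 77.3 ± 5.85 CPM (SD, n = 3), a mean difference of 0.44 in log2 CPM. All 3 Myodin sows, at 62.1, 84.0 and 85.3 CPM, lay below the mean of the control sows, 87.4 ± 15.9 CPM (SD, n = 3), a mean difference of -0.18. The control sows had 74.5, 82.5 and 105 CPM, so 2 of the Myodin sows lay above 2 of the control sows. TPST1 was not called between Myodin and control (adjusted p = 0.842 by edgeR). The difference between the classes was not tested, and 2 of the 3 control sows and 1 of the 3 control castrated boars are the libraries that stood against their labels.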

How the results depend on the processing

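The direction of the 7 genes was the same as in the reported fit in every alternative for Sustanon or Myodin against control, Sustanon against Myodin and uncastrated boars among Myodin pigs, and in 1313 of 1322 fits over all 6 comparisons. The exceptions were small values. ESRP2 in control boars against other controls was -0.003 without sows and -0.031 to 0.084 with single pigs left out, and TMEM125 there was -0.132 to 0.614. The interaction was 0.23 without sows and -0.663 to 0.075 for TMEM125, and -0.229 to 0.127 for TPST1. For Sustanon against control the direction was fixed by the choice of the genes. The other comparisons, except uncastrated boars among Myodin pigs, share libraries with that choice. Fits that leave out a pig also share most of their libraries, so nothing is read from the count of fits.

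Between Sustanon and control, 420 genes and all 7 of the set were called. The study's fold threshold gave 129 and 2. Leaving out the 3 control libraries that stood against their label on sex gave 0 and 0 (1199 genes at an unadjusted p under 0.05), with fewer samples. Single pigs left out gave 198 to 613 genes, and moved the count over 1.5 times for Sustanon pigs 2 (263), 5 (211), 19 (198) and 20 (247) and controls 13 (249), 14 (277) and 15 (272). This contrast chose the 7, so nothing is read from their calls in it.

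Between Myodin and control 0 genes were called, 1 by DESeq2 and 8 without uncastrated boars, and none of the 7. Between Sustanon and Myodin, 55 genes and 2 of the 7 were called. The counts were 275 and 4 by DESeq2, 390 and 5 with castration as a covariate, 339 and 1 without uncastrated boars, 36 and 0 without a count filter, 29 and 0 without the 3 control libraries, 17 and 0 with the fold threshold and 9 and 0 with only the groups compared. Limma called 53 and 3. Single pigs left out gave 0 to 541 genes and 0 to 5 of the 7. The gene count was 0 without Sustanon pigs 2, 5, 6 or 20 or Myodin pig 10, from 1 to 34 without Sustanon pigs 4 or 19 or Myodin pigs 8, 9, 11 or 12, and 231, 250 and 541 without Sustanon pigs 3 and 1 and Myodin pig 23.

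In Myodin boars against the others 210 genes were called, 453 by DESeq2, 107 with the fold threshold, 85 by limma, 0 with only the groups compared (1057 at an unadjusted p under 0.05) and 0 without sows (962). Single pigs left out gave 1 to 774, with 1, 774, 57, 93, 57 and 99 without Myodin pigs 23, 22, 24, 10, 11 and 12, and 0 to 1 of the 7. In control boars 135 genes were called, 260 by DESeq2, 40 without sows, 30 without the 3 control libraries, and 7, 8, 73 and 77 without control pigs 27, 25, 15 and 13. Limma called 1 of the 7 there and edgeR 0. The causes were not tested. TMEM125, with 4 to 105 counts in a library, is the gene that depth limits most. No paired analysis was possible because the replicate numbers are animal numbers that no 2 groups share.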

Other observations

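The tested genes that flank each of the 7 in the Sscrofa11.1 annotation of RefSeq, 14 in all, were looked up after the other results were known. With Sustanon against control, 2 of them were called by edgeR, beside 5.07% of tested genes. MPG, a DNA glycosylase of base excision repair, lies 100 bases from RHBDF1 and was higher by 0.68 (SE 0.14, adjusted p = 0.0114) on the log2 scale. Between uncastrated boars and the other control pigs its log2 difference was 0.70 (SE 0.17, adjusted p = 0.0436), beside 1.63% of tested genes called. That call held in 13 of 24 fits with a pig left out (adjusted p 0.0304 to 0.342) and was lost without control boar 25 (0.342) or 27 (0.33), fits in which 8 and 7 genes of the table were called, and without the 3 control libraries that stood against their label on sex (0.0939), where 30 genes were called. It was also lost with only the groups compared (0.0635), without sows (0.113) and without a count filter (0.0683). SYTL4, a synaptotagmin-like gene of vesicle transport, lies 38626 bases from TSPAN6 and was higher by 0.48 (SE 0.12, adjusted p = 0.0195). The other 12 flanking genes had log2 fold changes of -0.21 to 0.12, and SNRNP25, 433 bases from RHBDF1 on its other side, was at 0.12 (adjusted p = 0.478). With Sustanon against control, both were called in 24 of 24 fits with a pig left out, but neither without those 3 control libraries (adjusted p = 0.116 for MPG and 0.18 for SYTL4), where no gene was called.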
